A study of Mus musculus with 58 samples.

Results

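The 31 genes described here make sterols and fatty acids or control that synthesis. They were chosen by name from a list of SREBP regulators, cholesterol synthesis genes and fatty acid synthesis genes. All 31 were found among the 18088 genes of the deposited table. All 31 also passed the minimum mean of 10 normalised reads that left 16606 genes to test. By role they fall into 6 genes of sterol sensing, 7 of the mevalonate and isoprenoid steps, 11 of the steps from squalene to cholesterol and 7 of fatty acid synthesis. The data are bulk RNA sequencing of the prefrontal cortex of C57BL/6J mice at postnatal day 25. The mice were wild type (WT) or heterozygous (HT) for a Tbl1xr1 knock-in (KI) allele whose sequence change the labels do not name. Pups of either sex received fluoxetine, lithium or vehicle for 3 weeks, from day 3 to day 24, through the milk of their dams. The 12 groups of genotype, drug and sex held 5 libraries each, except WT lithium females and WT lithium males with 4 each, 58 in all. The labels give neither dose, dam nor litter, so differences between litters cannot be told apart from those between drugs. Nor do they tie libraries to animals, and the p-values given here therefore reflect only how far these samples scatter.

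Cells regulate these genes largely through the SREBP transcription factors. SREBP precursors are held in the endoplasmic reticulum by Insig proteins and are escorted by Scap to the Golgi, where proteases release the active factor. SREBP2, from Srebf2, mainly drives cholesterol synthesis genes and SREBP1, from Srebf1, mainly fatty acid synthesis genes. The brain makes nearly all of its cholesterol itself, and oligodendrocytes use much of it for myelin during the postnatal weeks covered here. Fluoxetine is a serotonin reuptake inhibitor, lithium is a mood stabiliser, and the Tbl1xr1 protein works in corepressor complexes with NCoR and SMRT.

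Recovered reads ran from 22901678 to 35008274 per library. Normalised reads of Tbl1xr1 lay between 1817 and 2279 in the 28 WT libraries and between 2276 and 2747 in the 30 HT libraries, so that the genotypes met only at their edges. The fitted difference was 0.29 ± 0.020 (log2, SE, adjusted p = 1.57e-15). The paralogue Tbl1x was also higher in HT, by 0.16 ± 0.018 (adjusted p = 1.25e-08). All 10 cortical neuron markers were detected, and their summed level ran from 159600 to 213700 over the 3 drug arms, with no marker at 0. The sum of 10 olfactory bulb markers varied far more, from 6817 to 49130 in vehicle, 7168 to 44770 in fluoxetine and 6995 to 39070 in lithium libraries. Choroid plexus markers stood at 33380 in WT vehicle female 4 and 25760 in HT lithium male 1, against medians of 250.8 to 283.8 in the 3 arms. Called genes for fluoxetine against vehicle and for lithium against fluoxetine are also counted without both libraries. The relations across libraries include them.

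To show what the upstream regions of the genes share, 4 of them are printed from the RefSeq promoter table (GRCm38.p6), which matched 25 of the 31 genes and holds several starts for some. Sqle, Fdps, Fdft1, Scd1, Scd2 and Stard4 were not matched. Each sequence runs 5′ to 3′ on the strand of the gene and ends at or before its annotated start, with exon bases removed. Capitals mark exact matches to the sterol element letters TCACNCCAC and to the NF-Y box CCAAT (read as ATTGG on the other strand), searched on both strands. Hmgcs1, Hsd17b7 and Nsdhl are shown because their levels moved together across libraries (r with Hmgcs1 of 0.795 and 0.738), and Acat2 because it held neither motif. Acat2 moved with Hmgcs1 as well (r = 0.548), and whether the motifs bear on such relations was not tested. The stretches lie at chr13:119690101-119690350 (plus strand) for Hmgcs1, chr1:169969242-169969455 (minus) for Hsd17b7, chrX:72918271-72918520 (plus) for Nsdhl and chr17:12960748-12960975 (minus) for Acat2.
Hmgcs1: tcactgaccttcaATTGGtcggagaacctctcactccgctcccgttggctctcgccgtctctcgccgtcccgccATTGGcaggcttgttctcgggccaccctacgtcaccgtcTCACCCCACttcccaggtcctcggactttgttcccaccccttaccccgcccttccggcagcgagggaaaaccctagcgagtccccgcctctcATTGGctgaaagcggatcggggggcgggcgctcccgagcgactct
Hsd17b7: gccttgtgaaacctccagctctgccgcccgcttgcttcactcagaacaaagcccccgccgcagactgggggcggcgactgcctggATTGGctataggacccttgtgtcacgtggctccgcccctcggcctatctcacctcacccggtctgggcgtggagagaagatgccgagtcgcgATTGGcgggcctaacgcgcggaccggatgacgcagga
Nsdhl: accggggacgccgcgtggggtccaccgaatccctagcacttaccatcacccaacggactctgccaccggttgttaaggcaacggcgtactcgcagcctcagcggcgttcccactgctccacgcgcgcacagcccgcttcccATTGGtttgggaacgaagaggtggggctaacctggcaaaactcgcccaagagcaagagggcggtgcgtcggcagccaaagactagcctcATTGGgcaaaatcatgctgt
Acat2: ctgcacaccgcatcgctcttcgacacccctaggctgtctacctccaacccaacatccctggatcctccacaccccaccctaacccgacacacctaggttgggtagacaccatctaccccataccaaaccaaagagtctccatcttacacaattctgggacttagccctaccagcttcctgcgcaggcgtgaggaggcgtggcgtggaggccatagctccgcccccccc

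Hmgcs1 was the only gene of the 25 to hold an exact match to TCACNCCAC, at base -137 from its RefSeq start, where the letters read TCACCCCAC. Looser matches and bases further upstream were not searched, so the other genes are not shown to lack a sterol element. Among 11838 protein-coding genes of the table, 1.24% held a match in the 250 bases before the start. The NF-Y box was present in 19 of the 25 genes (76.0%), against 40.2% of the protein-coding genes. It occurred 2 or more times in 11 of the 25 (44.0%), against 14.3%. Hmgcs1 held 3 boxes and Mvk, mevalonate kinase, held 5. The 6 genes without a box in the windows searched were Scap, Acat2, Lpin1, Acaca, Acly and Elovl6. The only window for Acaca ends at chr11:84195437, inside the gene, which starts at chr11:84129672. The bases before that start were not searched, so Acaca is not shown to lack a box there. The E-box CACGTG was found in 5 of the 25, against 9.37% of the protein-coding genes, namely in Dhcr7, Hsd17b7, Insig1, Sc5d and Scap. A match is a description of these letters and not of binding, and the 3 motifs do not overlap one another in the windows printed.

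Levels per kilobase of exon spanned a wide range. Scd2, the main brain stearoyl-CoA desaturase, was highest at 6180 normalised reads per kb (mean of 58 libraries). Hmgcs1, which feeds the mevalonate pathway, followed at 3030, and Srebf2 at 1170 and Msmo1, a sterol demethylation enzyme, at 1130 were the highest of the other roles. The lowest was Lpin1, a phosphatidate phosphatase, whose lowest library stood at 74.2 per kb. The median of the 31 genes was 505 per kb, against 158.5 for all genes tested. Srebf1 stood at 184 per kb, well under Srebf2. The spread over libraries was small: the highest library exceeded the lowest by 1.25 times for Scap and by at most 2.23 times, for Scd1. The fewest reads behind any value of the 31 genes were 245. The part of counting noise in the spread between libraries was not computed.

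**Figure D1:**
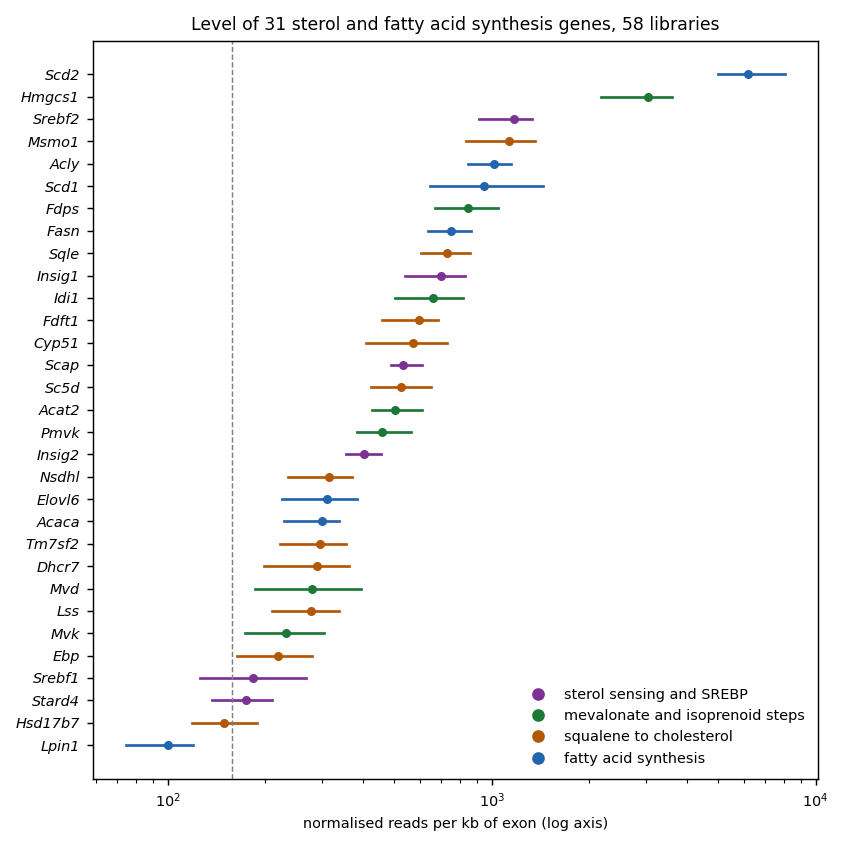
Level of each of the 31 genes in normalised reads per kb of exon (log axis); points are means of 58 libraries, lines run from the lowest to the highest library, colours give the role, and the dashed line is the median of all genes tested (158.5). Scd2 and Hmgcs1 stand apart at the top and most genes lie above the dashed line.

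The comparison of fluoxetine with vehicle asked whether exposure through the milk changed these genes. Stard4, a cytosolic carrier of cholesterol, and Elovl6, which elongates palmitate to stearate, fell under fluoxetine. No member rose. In all, 26 of the 31 log2 differences were below 0, with a median of -0.08, against 0.00 for all genes. Calls at an adjusted p under 0.05 (limma, over 16606 genes, mean of WT and HT) were 0 higher and 2 lower of 31, against 1.1% higher and 1.45% lower of all genes, 2.55% in all. At an unadjusted p under 0.05, 12 of 31 genes were lower and 0 higher, against 8.85% lower and 8.55% higher of all genes, 17.4% in all. edgeR called the same 2 genes and DESeq2 also Sqle. The 95% intervals of the 31 genes had a median half-width of 0.086 on the log2 scale, and 12 of them left out 0.

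In the sensing group, Stard4 ran from 711.5 to 1038.0 normalised reads in the 20 vehicle libraries, with a median of 952.7. Under fluoxetine it ran from 743.3 to 913.9 in 20 libraries, with a median of 851.8. All 20 fluoxetine libraries lay below the vehicle median, and 14 vehicle libraries lay above every fluoxetine library, although the ranges overlapped. The difference was -0.14 ± 0.037 (log2, SE, adjusted p = 0.0242), a fall by 9.54%, and its sign was the same in WT and HT and in females and males. WT vehicle females read 996.6, 955.5, 997.2, 1018.8 and 1038.0, and WT fluoxetine females read 813.2, 913.9, 850.9, 881.1 and 809.2. That is the only genotype and sex in which Stard4 libraries of the drug did not overlap those of vehicle. Srebf2 stood at -0.09 ± 0.031 (adjusted p = 0.0901) and Insig1, which retains the SREBP precursors, at -0.09 ± 0.046 (adjusted p = 0.327). Srebf1, Scap and Insig2 lay between -0.02 and 0.02.

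None of the 7 mevalonate genes passed the threshold, 3 of them having an unadjusted p under 0.05. Hmgcs1 stood at -0.14 ± 0.047 (adjusted p = 0.109), Fdps, the farnesyl diphosphate synthase, at -0.12 ± 0.044 (adjusted p = 0.118) and Idi1, the isopentenyl isomerase, at -0.11 ± 0.046 (adjusted p = 0.198). Acat2, the thiolase of the entry step, stood at -0.02 ± 0.031. Fdps shares 89.7% of the 31-base stretches of its transcript with other annotated genes, chiefly Gm43738, so its level is uncertain. Of the 11 genes from squalene to cholesterol, 9 were below 0, 5 had an unadjusted p under 0.05 and none passed. Sqle, squalene epoxidase, had the smallest p of that group at -0.11 ± 0.033 (adjusted p = 0.0647). Hsd17b7 (-0.12 ± 0.044), Msmo1 (-0.11 ± 0.050) and Nsdhl (-0.10 ± 0.038), whose enzymes act in succession to demethylate the sterol ring, had similar values. Dhcr7, the last reductase of its branch, stood on the other side of 0 at 0.06 ± 0.047 (adjusted p = 0.577).

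All 7 fatty acid genes were below 0. Elovl6 (chr3:129532355-129638495) ran from 1646.1 to 2352.5 with a median of 1938 in the vehicle libraries. Under fluoxetine it ran from 1380.4 to 2069.3 with a median of 1755. The drug libraries were lower in 3 of the 4 pairs of genotype and sex, and the arms overlapped. The difference was -0.17 ± 0.050 (adjusted p = 0.0482). It was widest in WT females (-0.36), where fluoxetine libraries read 1920.1, 1414.5, 1421.6, 1584.0 and 1380.4 and vehicle libraries 1925.8, 2082.0, 1906.8, 1984.5 and 1949.8. HT females differed by 0.03 in the other direction. Scd2 stood at -0.08 ± 0.044, Acaca, the acetyl-CoA carboxylase, at -0.07 ± 0.029, and Fasn, fatty acid synthase, at -0.04 ± 0.030, all short of the threshold.

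**Figure D2:**
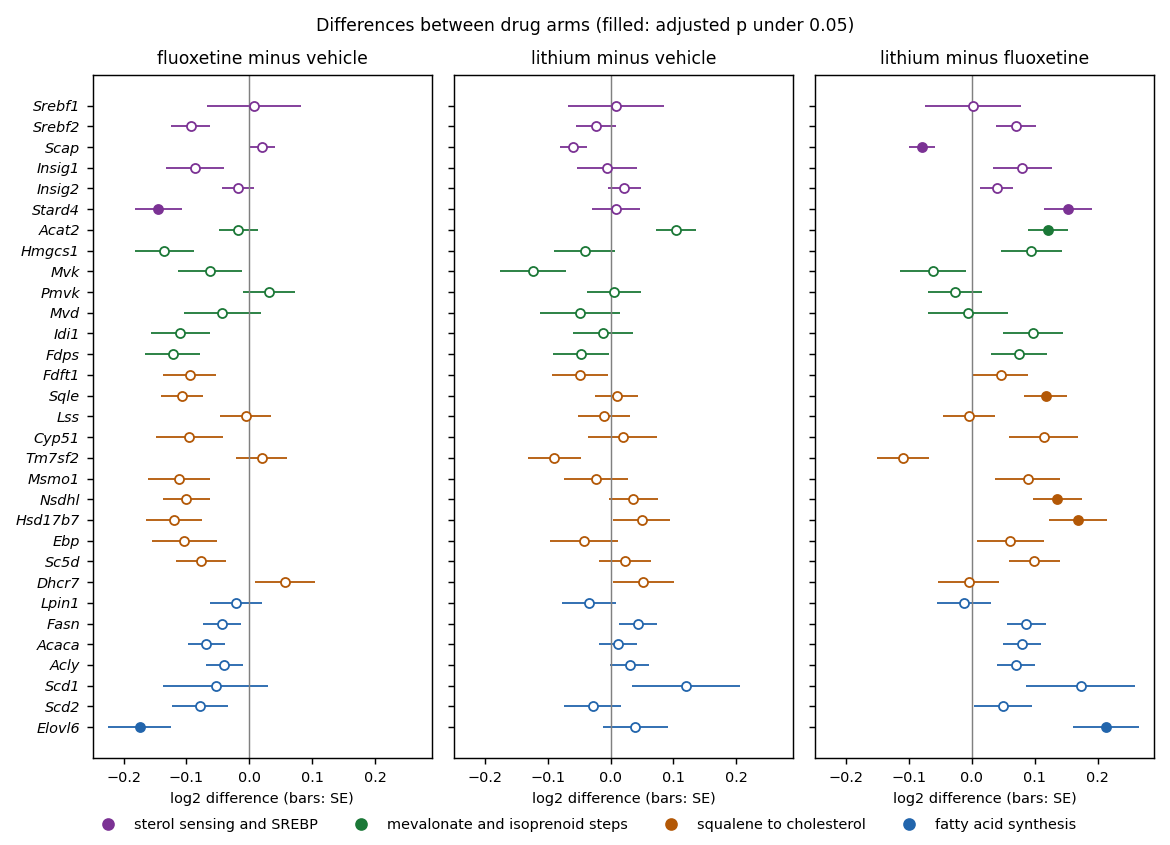
Log2 differences between drug arms for the 31 genes, mean of WT and HT over both sexes, with SE bars; filled points have an adjusted p under 0.05. In the fluoxetine panel 26 of 31 points lie left of 0 and 2 are filled (Stard4 and Elovl6), the lithium panel has no filled point, and the panel of lithium minus fluoxetine has 7, Scap alone among them to the left of 0.

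The count under fluoxetine depended on single libraries. Leaving out HT vehicle female 4, which held the lowest value of all 58 libraries in 14 of the 31 genes, brought it from 2 to 6, adding Srebf2, Hmgcs1, Sqle and Nsdhl. The share of all genes called in that fit is not given here. Elovl6 passed in 11 of the 40 fits that left out 1 library of the arms compared, with differences between -0.19 and -0.16. Stard4 passed in all 40. With a GC and length trend removed from each library, Stard4 (-0.12, adjusted p = 0.0848) and Elovl6 (-0.14, adjusted p = 0.0795) missed it, while Srebf2 (-0.11, adjusted p = 0.011) and Fdps (-0.15, adjusted p = 0.0326) passed. Over all genes, the fluoxetine difference correlated with GC content at r = 0.17, a correlation across genes, which are not independent.

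Some markers of other cells differed by as much as these genes. Of 8 endothelial markers tested, Kdr (-0.34 ± 0.084, adjusted p = 0.0214) and Cdh5 (-0.19 ± 0.049, adjusted p = 0.0264) fell under fluoxetine. Over all genes 2.55% were called, and the directions of the other endothelial markers are not given here. The summed endothelial level ran from 6284 to 8911 with a median of 7448 in vehicle libraries, and from 6114 to 9413 with a median of 6948 under fluoxetine. Of 9 oligodendrocyte precursor markers, 0 passed in limma and 3 had an unadjusted p under 0.05, and 7 of the 9 lay below 0. Their sums ran from 10530 to 16970 with a median of 12820 in vehicle libraries, and from 10430 to 17490 with a median of 11800 under fluoxetine. No marker of either list was at 0, and the part of these cells in the result was not tested. None of 14 oligodendrocyte markers passed, and their sums ran from 92140 to 263400 in vehicle and from 104500 to 244100 under fluoxetine. With the oligodendrocyte sum as a covariate, Sqle was called as well, and Stard4 stood at -0.14 (adjusted p = 0.0203) and Elovl6 at -0.17 (adjusted p = 0.0421). With the olfactory bulb sum as a covariate, they stood at -0.14 (adjusted p = 0.016) and -0.18 (adjusted p = 0.0258). In bulk tissue, fewer cells of a type and less RNA per cell cannot be told apart.

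Genes around the pathway were given by 5 further lists. Under fluoxetine, 0 of 10 genes of SREBP processing and turnover, 0 of 17 LXR targets and sterol efflux genes, 0 of 11 genes of the isoprenoid branches, 0 of 23 genes of fatty acid elongation, desaturation and activation and 0 of 6 corepressor genes passed in limma. At an unadjusted p under 0.05 the counts were 3, 2, 0, 3 and 3. Over all genes 2.55% passed and 17.4% had such an unadjusted p. The 3 of 10 genes of SREBP processing and 3 of 6 corepressor genes lay above that share, and the remaining lists below it. The lists are small, and whether any of them differs from all genes was not tested. In the first list, Mbtps1, the SREBP-cleaving protease of the Golgi, stood at 0.07 ± 0.026 (adjusted p = 0.174). The smallest p in the second belonged to Vldlr, a lipoprotein receptor, at -0.07 ± 0.021 (adjusted p = 0.0667), and to Abcg1, a sterol exporter, at 0.05 ± 0.023. Hacd3 (-0.04 ± 0.016) and Fads2, a fatty acid desaturase (-0.11 ± 0.040), led the elongation list.

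Lithium against vehicle gave another picture. None of the 31 genes passed in limma, against 2.67% of all genes, and 4 had an unadjusted p under 0.05, against 16.9%. edgeR and DESeq2, run on the recovered reads, each called 1 member, Acat2. The median difference of the 31 genes was 0.01, with 16 above 0 and 15 below. Acat2 (chr17:12942890-12960747) ran from 1103.0 to 1331.9 with a median of 1253 in vehicle libraries and from 1121.8 to 1516.8 with a median of 1347 in the 18 lithium libraries. Of these 18, 11 lay above every vehicle library. The difference was 0.10 ± 0.032, with an adjusted p of 0.0622 in limma, 0.0493 in edgeR and 0.029 in DESeq2. Over the other settings that kept both sexes, its adjusted p ran from 0.0174 to 0.123. Acat2 passed (adjusted p from 0.0278 to 0.0451) when HT lithium male 2, HT lithium male 4, WT lithium female 3 or WT lithium female 4 was left out singly. Acat2 shares 50.5% of its 31-base stretches with its paralogue Acat3, whose mean was 77.7 normalised reads, so that reads may have been split between them. Scap, the SREBP escort, stood at -0.06 ± 0.021 (adjusted p = 0.117), and Mvk at -0.12 ± 0.053 (adjusted p = 0.201). Ufd1, which helps to extract ubiquitinated proteins from the endoplasmic reticulum, was the only gene called in the 5 surrounding lists, at -0.08 ± 0.018 (adjusted p = 0.00721). Kdr fell there too (-0.33 ± 0.087, adjusted p = 0.0308), as did the microglial marker Cx3cr1 (-0.23 ± 0.053, adjusted p = 0.00897), 1 of 8 and 1 of 10 markers of their lists.

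The direct comparison of lithium with fluoxetine uses the fluoxetine libraries again, so its values are not independent of those above. In it, 6 genes were higher under lithium and 1 was lower, against 3.77% higher and 3.73% lower of all genes, 7.5% in all. The median difference was 0.08, against 0.00 for all genes, and 15 of 31 had an unadjusted p under 0.05, 13 higher and 2 lower, against 11.3% higher and 11.2% lower of all genes, 22.4% in all. In 14 of the 31 genes the lithium mean was higher in all 4 pairs of genotype and sex, and in none was it lower in all 4, against 10.2% and 10.3% of all genes tested. The called genes came from every role.

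Elovl6 differed most, at 0.21 ± 0.052 (adjusted p = 0.00746). Its 18 lithium libraries ran from 1627.1 to 2325.9 with a median of 2021, and 15 of them lay above the fluoxetine median. Hsd17b7 (chr1:169949535-169969241) followed at 0.17 ± 0.046 (adjusted p = 0.0163). It ran from 618.9 to 805.9 with a median of 689.6 under fluoxetine and from 653.7 to 954.2 with a median of 782 under lithium. Lithium libraries were on the high side, with 16 of 18 above the fluoxetine median, but the arms overlapped. Stard4 ran from 818.1 to 1090.8 with a median of 925.9 under lithium and differed by 0.15 ± 0.038 (adjusted p = 0.00856). Of the 18 lithium libraries, 11 lay above every fluoxetine library. Nsdhl (chrX:72918557-72958514) ran from 583.0 to 739.5 with a median of 648 under fluoxetine and from 567.0 to 802.8 with a median of 728.3 under lithium, a difference of 0.14 ± 0.039 (adjusted p = 0.0223). The lowest lithium library of Nsdhl, HT lithium female 1, lay under every fluoxetine library.

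Acat2 differed by 0.12 ± 0.032 (adjusted p = 0.0135), its fluoxetine libraries running from 1064.5 to 1351.1 with a median of 1238. Sqle (chr15:59315077-59331192) differed by 0.12 ± 0.034 (adjusted p = 0.0249). Sqle ran from 1715.1 to 2094.7 with a median of 1890 under fluoxetine, and from 1872.9 to 2361.6 with a median of 2081 under lithium, where 17 of 18 libraries exceeded the fluoxetine median. Scap (chr9:110333288-110384950) was the member that was lower, at -0.08 ± 0.021 (adjusted p = 0.0147). It ran from 2097.6 to 2552.1 with a median of 2290 under fluoxetine and from 2066.2 to 2319.5 with a median of 2166 under lithium. The 4 pairs differed in Scap: WT females stood at -0.21, WT males at 0.00, HT females at -0.06 and HT males at -0.05. WT fluoxetine females read 2492.8, 2355.5, 2453.4, 2503.0 and 2552.1, all above the highest lithium library.

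**Figure D3:**
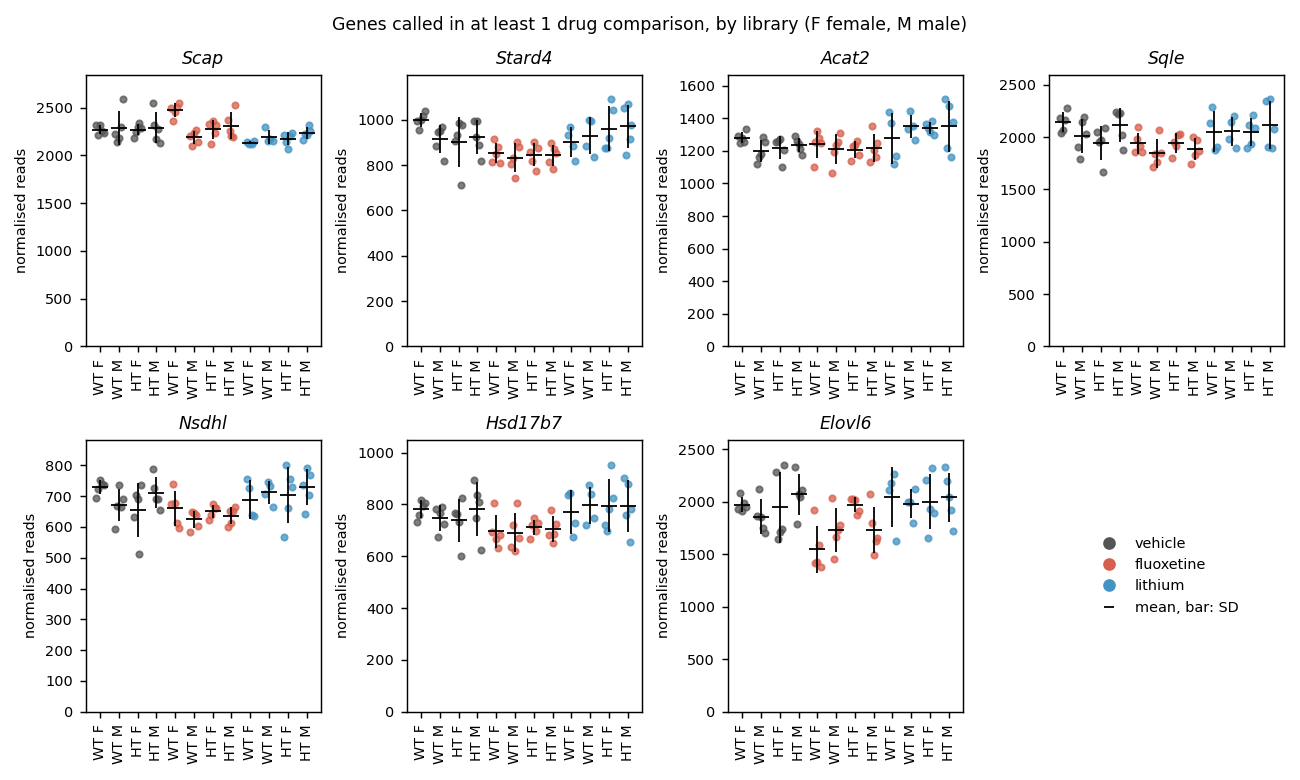
Normalised reads of the 7 called genes in every library, by drug (colour), genotype and sex; black marks are group means with SD. In Stard4, Hsd17b7, Nsdhl and Sqle most fluoxetine group means lie below those of vehicle and lithium, whose points overlap each other. In HT females the fluoxetine means of Nsdhl and Sqle lie level with vehicle (log2 differences of 0.004 and 0.001). WT lithium females are low in Stard4 too (-0.15 against vehicle), and in Elovl6 the WT fluoxetine females are lowest.

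Both drugs were compared with the same vehicle libraries, and the values of the 7 genes stand side by side as follows. Stard4 and Elovl6 stood at -0.14 and -0.17 under fluoxetine and at 0.01 and 0.04 under lithium. The lithium value of Stard4 averages unlike pairs. It was -0.15 in WT females, 0.02 in WT males, 0.09 in HT females and 0.07 in HT males. Sqle, Nsdhl and Hsd17b7 stood at -0.11, -0.10 and -0.12 under fluoxetine and at 0.01, 0.04 and 0.05 under lithium. Acat2 stood at -0.02 and 0.10, and Scap at 0.02 and -0.06. Removing the GC and length trend kept all 7 calls and added Srebf2, Fasn and Acaca. Without either choroid plexus-rich library 6 calls were made, Sqle being lost (adjusted p = 0.0506). Sqle was lost as well with median centring (adjusted p = 0.0649) and without WT lithium female 2 (adjusted p = 0.058). Within single sexes, with fewer libraries, 1 call was made in females (Scap) and 0 in males, against 7 in all libraries. Of the surrounding lists, Vldlr (0.10 ± 0.022, adjusted p = 0.00253) and Pdss1, which makes the ubiquinone side chain (0.18 ± 0.059, adjusted p = 0.0428), were higher under lithium. Ufd1 (-0.11 ± 0.018, adjusted p = 7.51e-05), Fntb, a farnesyltransferase subunit (-0.12 ± 0.035, adjusted p = 0.0314), and the deacetylase Hdac3 (-0.11 ± 0.025, adjusted p = 0.00692) were lower. That is 1 of 10, 1 of 17, 2 of 11, 0 of 23 and 1 of 6 genes of the 5 lists, against 7.5% of all genes. The astrocyte marker Aldh1l1 (-0.11 ± 0.036, adjusted p = 0.0445; 1 of 11) and the endothelial marker Ly6c1 (-0.23 ± 0.061, adjusted p = 0.0156; 1 of 8) were lower as well. Astrocyte sums ran from 147400 to 201400 under fluoxetine and from 147200 to 179500 under lithium, with no marker at 0, and their part in the result was not tested.

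Within genotypes, no member passed in limma. For fluoxetine in WT, 0 of 31 were called, against 0.367% of all genes, and 10 had an unadjusted p under 0.05, against 13.4%. Stard4 stood at -0.18 ± 0.052 (adjusted p = 0.0843), Elovl6 at -0.23 ± 0.071 (adjusted p = 0.107) and Sqle at -0.13 ± 0.047 (adjusted p = 0.168). edgeR called 0 and DESeq2 called Stard4 (adjusted p = 0.0374). For fluoxetine in HT, limma called 0 of all 16606 genes, that is 0%, and 4 members had an unadjusted p under 0.05, against 9.19%. Insig1 (-0.14 ± 0.065), Srebf2 (-0.10 ± 0.044) and Acaca (-0.09 ± 0.041) had the smallest p. Acaca stood at -0.06 without HT fluoxetine female 4. The members' medians were close, -0.07 in WT and -0.08 in HT. The difference between genotypes was called for 0 of 16606 genes, 0 members having an unadjusted p under 0.05, against 4.78%. Lss, lanosterol synthase, had the smallest p at -0.15 ± 0.081 (adjusted p = 0.964), ahead of Srebf1 (-0.18 ± 0.149) and Insig1 (-0.11 ± 0.092). These intervals, with a median half-width of 0.171, leave room for differences as large as the drug effects themselves.

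For lithium in WT, 0 of 31 were called against 0.0301% of all genes, and 3 had an unadjusted p under 0.05, against 9.38%. Tm7sf2, a sterol reductase, stood at -0.17 ± 0.061 (adjusted p = 0.327), Mvk at -0.17 ± 0.076 and Scap at -0.07 ± 0.031. Tm7sf2 overlaps Vps51 by 532 bases on the same strand, so some of its reads may be shared. For lithium in HT, 0 of 31 were called against 0.385%, and 1 had an unadjusted p under 0.05, against 12.2%. Acat2 stood there at 0.13 ± 0.044 (adjusted p = 0.174), Stard4 at 0.08 ± 0.052 and Scap at -0.05 ± 0.029. Stard4 stood at 0.04 without HT vehicle female 4, and Scap at -0.03 without HT vehicle male 1. The difference between genotypes was called for 0 genes and 0 members had an unadjusted p under 0.05, against 3.67%. Stard4 (0.15 ± 0.076) and Tm7sf2 (0.16 ± 0.084) had the smallest p, both with an adjusted p of 0.998. edgeR and DESeq2 called 0 members in each of these lithium comparisons and in both comparisons between genotypes' drug effects.

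The knock-in genotype itself moved none of the 31 genes past the threshold. Averaged over treatments, 0 of 31 were called, against 1.07% of all genes, and 0 had an unadjusted p under 0.05, against 15.2%. The median difference was 0.00, and the values ran from -0.04 to 0.08. Tm7sf2 (0.07 ± 0.034, adjusted p = 0.346), Elovl6 (0.08 ± 0.042, adjusted p = 0.347) and Mvd, the decarboxylase of the mevalonate branch (0.08 ± 0.051, adjusted p = 0.467), had the smallest p. Under vehicle, 0 of 31 were called against 0.0181% of all genes, with 0 at an unadjusted p under 0.05, against 5.76%. Insig2 (-0.06 ± 0.036), Dhcr7 (-0.10 ± 0.067) and Stard4 (-0.07 ± 0.052) had the smallest p there. Without HT vehicle female 4, Dhcr7 stood at -0.04 and Stard4 at -0.03. The 95% intervals of the averaged comparison had half-widths of 0.035 to 0.140. edgeR and DESeq2 also called 0 members in either comparison. In the surrounding lists, Elovl2, an elongase of polyunsaturated fatty acids, was lower in HT (-0.16 ± 0.039, adjusted p = 0.0282), and apart from it only the corepressor genes Tbl1xr1 and Tbl1x were called. All 10 olfactory bulb markers lay below 0 in HT against WT, with a median of -0.88, and 8 of them had an unadjusted p under 0.05, although none passed the adjusted threshold. The bulb sum ran from 6817 to 39070 in HT and from 7699 to 49130 in WT libraries, with no marker at 0. The part of this imbalance in the genotype values was not tested.

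No member was called between males and females, against 0.114% of all genes, and 1 had an unadjusted p under 0.05, against 7.56%: Pmvk, phosphomevalonate kinase, at -0.09 ± 0.035 in males (adjusted p = 0.589). Insig2 stood at -0.04 ± 0.021 and Lss at 0.06 ± 0.034. The 3 tests of whether genotype, fluoxetine or lithium differences depended on sex called 0 of 16606 genes each, with 2, 1 and 0 members at an unadjusted p under 0.05, against 4.73%, 6.44% and 1.58%. Acaca (0.14 ± 0.049), Scap (-0.08 ± 0.041) and Mvk (0.17 ± 0.105) had the smallest p in the respective tests, with adjusted p of 0.994, 0.769 and 1. edgeR and DESeq2 called 0 members in these 4 comparisons.

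The genes varied together from library to library within groups. Relations were computed on log2 deviations from the group mean over all 58 libraries, and 93 relations were tested by permuting within groups (100000 permutations, two-sided, Benjamini-Hochberg adjusted). Of these, 66 passed. The median of r over pairs of genes was 0.61 among the 11 genes from squalene to cholesterol, 0.54 among the 7 mevalonate genes, 0.40 among the 7 fatty acid genes and -0.07 among the 6 sensing genes. Within the sensing group, Stard4 moved with Insig1 (r = 0.700) and with Srebf2 (r = 0.675), while other pairs were negative, down to -0.55. Between fatty acid and mevalonate genes the median was 0.20. These medians are a description, since all genes come from the same libraries.

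With Hmgcs1 as the reference, 23 of the other 30 genes were positive and 2 were negative at an adjusted p under 0.05. How many of all genes would pass against Hmgcs1 was not computed. Msmo1 (r = 0.885, rho = 0.849) and Idi1 (r = 0.862, rho = 0.850) were closest, each with p = 0.00001, the smallest that the permutations can give, and an adjusted p of 3.9e-05. Stard4 followed Hmgcs1 at r = 0.759 (rho = 0.719) and Srebf2 at r = 0.530 (rho = 0.418, adjusted p = 0.001). Srebf1 ran the other way, at r = -0.690 (rho = -0.709, permutation p = 0.00001), and r was -0.663 without the 2 libraries farthest from the median of Hmgcs1. Insig2 was the other negative gene, at r = -0.302 (adjusted p = 0.043). Srebf1 was lowest in HT vehicle male 4 at 543.7 and highest in HT lithium male 2 at 1153.8 normalised reads. Scd1 and Scd2, the paired desaturases, moved together at r = 0.851 (rho = 0.811).

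**Figure D4:**
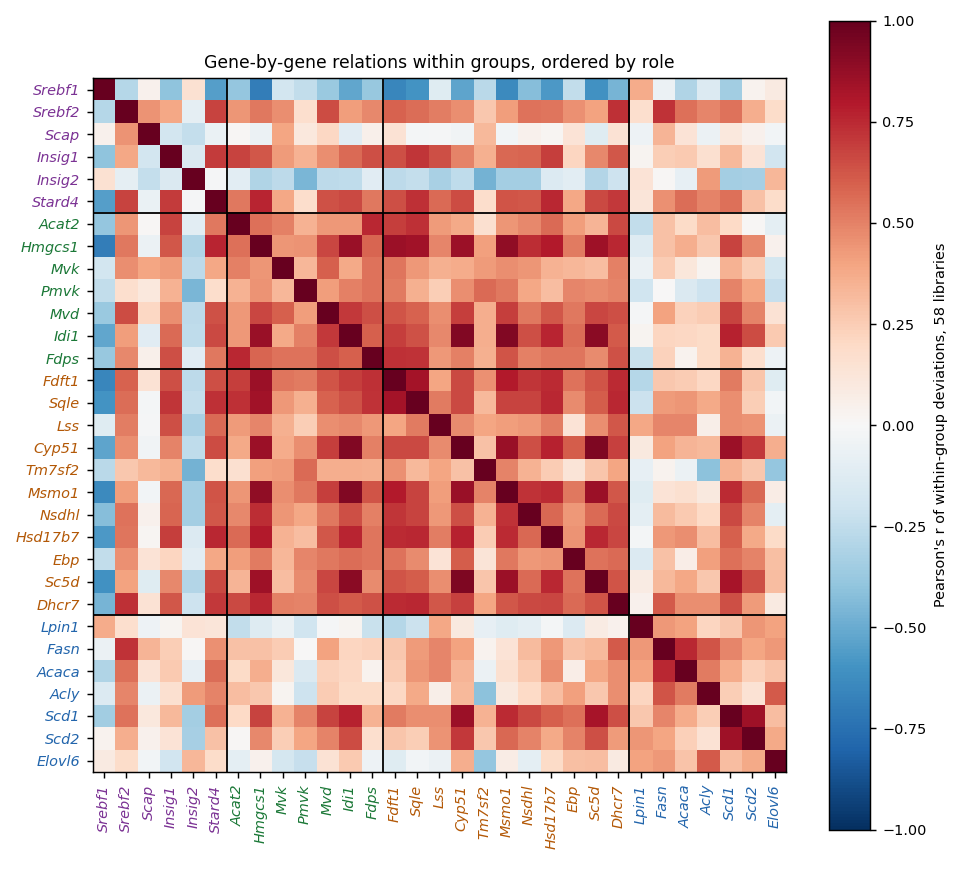
Pearson's r between the within-group log2 deviations of each pair of the 31 genes over 58 libraries, ordered by role with black lines between roles. The block of mevalonate and squalene-to-cholesterol genes is mostly red (positive), with medians of 0.54 and 0.61, and the Srebf1 and Insig2 lines are mostly blue (negative).

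The marker sums moved with these patterns. Here too the counts cover the 31 genes only, and the share of all genes that would pass was not computed. Against the oligodendrocyte sum, 19 of 31 genes were positive and 1, Insig2, was negative (r = -0.410, adjusted p = 0.0034). Scd2 was closest at r = 0.794 (rho = 0.731, adjusted p = 3.9e-05), followed by Cyp51, lanosterol demethylase, at 0.692 and Idi1 at 0.687. All 11 genes from squalene to cholesterol were positive. Stard4 (r = 0.217, adjusted p = 0.18) and Elovl6 (r = 0.264, adjusted p = 0.1), the genes called under fluoxetine, did not pass. Against the olfactory bulb sum, 3 genes were positive and 17 negative. Srebf1 rose with it at r = 0.706 (rho = 0.696, adjusted p = 3.9e-05), and Insig2 at 0.471 and Lpin1 at 0.307 did so too. Msmo1 (-0.632), Fdft1, squalene synthase (-0.622), and Hmgcs1 (-0.612) were the most negative. Without the 2 farthest libraries, none of the passing relations changed sign. The bulb sum spanned 2.849 on the log2 scale. Its widest gap, 0.253, lay between 28 libraries below it and 30 above it. Whether the libraries form clusters by this sum was not tested.

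After the bulb sum was removed from both, Srebf1 and Hmgcs1 still ran opposite at r = -0.461 (rho = -0.456, permutation p = 0.0065), or -0.289 without the 2 farthest libraries. How much of each relation comes from the share of tissue in the dissection and how much from change within cells was not tested.

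**Figure D5:**
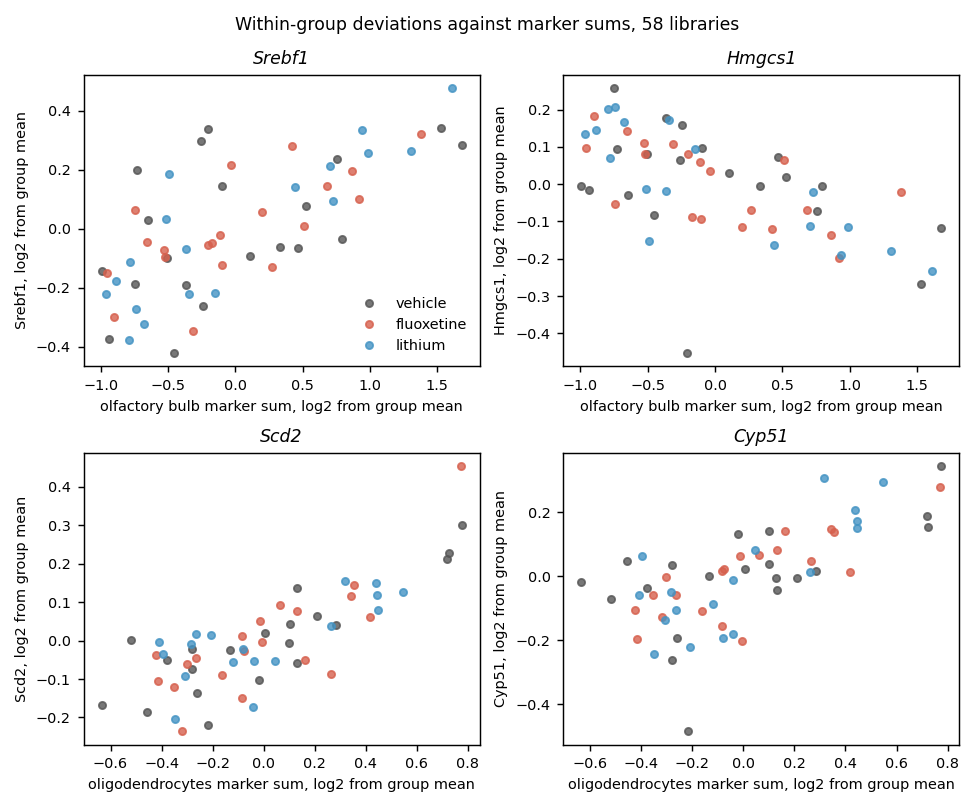
Within-group log2 deviations of Srebf1 and Hmgcs1 against the olfactory bulb marker sum and of Scd2 and Cyp51 against the oligodendrocyte marker sum; each point is 1 of 58 libraries, coloured by drug. Srebf1 rises and Hmgcs1 falls along the bulb sum (r = 0.706 and -0.612), and Scd2 and Cyp51 rise along the oligodendrocyte sum (r = 0.794 and 0.692), with the 3 drugs spread along each cloud.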

How the data were processed

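RNA sequencing was measured in 58 prefrontal cortex libraries made with a stranded poly-A kit, per the labels' protocols. The deposited table holds a linear signal: the authors had scaled each library's read counts by a single size factor. Salmon 0.11.2, R 3.6.0, DESeq2 1.19.11 and genome build GRCm38 are named in the submitters' processing notes. Whether strand was used and how reads matching several genes were shared out are not given in the sources used here. Dividing each library by its smallest step gave whole reads back for 100% of values (tolerance 0.0001). In 6 libraries the size factor lay between 0.9912 and 1.0085, where the step is hardest to tell from 1, and edgeR and DESeq2 rest on the recovered reads. Groups and replicate numbers came from the sample titles. Gene names, positions and lengths came from GENCODE M21 on GRCm38, which matched 18077 of 18088 IDs.

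Differences were tested on log2(value + 1) with limma 3.58.1 in R 4.3.3, using a mean-variance trend, 12 group means in 1 fit and 46 residual degrees of freedom. A minimum mean of 10 left 16606 genes, and p-values were adjusted by Benjamini-Hochberg over all of them in each of 15 comparisons, at a threshold of 0.05. A difference on that scale slightly understates the change of low genes. edgeR 4.0.16 and DESeq2 1.42.0 were run on the recovered reads as alternatives, and limma was tested on simulated data, with an outcome not given here. The other alternatives were pseudocount, minimum mean, scaling, weights, marker covariates, a replicate block and left-out libraries. The closing section gives mainly the settings that moved the counts most. Fits with another pseudocount or a higher minimum mean are not listed there. Genes named with values are every member called, the 3 with the smallest p where none was, the highest per length in each role, and in each surrounding list the called genes and up to 2 with the smallest p. One gene that this rule would name is not reported here. Single values beyond these were chosen after they were seen. The members, gene lists and marker lists were chosen with earlier results of these data known. Intervals cover the spread between libraries, and counting noise was not computed apart from it.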

Additional observations from a re-analysis of the deposited data

Results flagged for a closer look

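Of 84 groups checked, that is the 7 called genes in each of 12 groups, 1 held a library far from the others, and chance flags about 1 in 20 groups. Stard4 stood at 711.5 normalised reads in HT vehicle female 4, and the other 4 libraries of that group stood between 907.7 and 986.8. The gap to the next library was 0.713 of the group's whole range. The same library was the lowest of all 58 in 14 of the 31 genes, among them Hmgcs1 at 7540.1, Sqle at 1668.9 and Nsdhl at 510.7. It lay below its group mean in 29 of the 31 genes, with a median deviation of -0.219 on the log2 scale. Its olfactory bulb sum was -0.206 and its oligodendrocyte sum -0.217 from the group mean on the same scale. Their part in the result was not tested.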

How the results depend on the processing

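Under fluoxetine (mean of genotypes, 2 members called), the count was 1 with no minimum mean, with median centring and without both choroid plexus-rich libraries, 7 with array weights, and 0 in females only or males only. Leaving out single libraries gave 1 to 6, the 6 without HT vehicle female 4. For fluoxetine in WT (0), array weights gave 3 and DESeq2 gave 1, and left-out libraries gave 0 to 1. For lithium against vehicle (0), array weights, the adjacent tissue covariates, the olfactory bulb covariate, edgeR and DESeq2 gave 1 each, the GC and length trend removed gave 2, and left-out libraries gave 0 to 1. For lithium against fluoxetine (7), array weights gave 12, females only 1, males only 0, and left-out libraries 6 to 8. The adjusted p of Stard4 under fluoxetine ran from 0.00617 to 0.273 over all settings and that of Elovl6 from 0.0117 to 0.422, both highest in females only. The cause of these shifts was not tested, and the fits within a sex also rest on fewer libraries. The members' median moved by more than the spread between libraries in 1 case, the lithium difference between genotypes, 0.0446 in all libraries and -0.0497 in males only. Directions reversed in 3 values: Dhcr7 (0.0010) and Stard4 (0.0149) for genotype under vehicle in males only, and Tm7sf2 for the averaged genotype in females only (-0.0072). Under every scaling tried, the median stayed between -0.0787 and -0.0729 for fluoxetine and between 0.0655 and 0.0750 for lithium against fluoxetine. The bulb covariate, the GC and length trend and the pair of left-out libraries were chosen after seeing the data. Replicate numbers did not pair libraries: same-numbered libraries of different groups had a median correlation of 0.0024, and 8 of 58 correlated best with their own number. WT lithium males 3 and 4 are numbered so in their titles, used here, but their library names end in 4 and 5, and the check was not repeated with those. The replicate block gave 2 and 7 members in the fluoxetine and the lithium against fluoxetine comparisons and changed no count.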
